A study of Mus musculus with 6 samples.

Results

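Translation initiation factors and aminoacyl-tRNA synthetases were followed in RNA sequencing libraries of C57BL/6 mouse alveolar macrophages, the resident phagocytes of the airspace. Members were chosen by a rule on symbols that does not use their values, though earlier results of these data were known. The rule took Eif followed by a digit, a capital letter followed by ars or ars2, and Eprs, Farsa and Farsb. The rule gave 91 of the 10539 genes in the deposited table, namely 54 initiation factor genes, 20 cytosolic synthetases and 17 mitochondrial synthetases, whose symbols end in 2. The 3 CEBPβ-A libraries come from lung alveolar macrophages with C/EBPβ overexpression that were then given an A20 adenovirus, and the 3 CEBPβ libraries from cells with the same overexpression. All cells thus carried C/EBPβ overexpression, and the sources used here do not give the virus used for CEBPβ cells, the means of overexpression, the dose or the time. A20, encoded by Tnfaip3, is known to restrain NF-κB signalling. The labels do not say whether replicates are separate animals or cultures, so each p-value measures the spread between these libraries only, which may be technical.

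Initiation factors bring the ribosome, the initiator tRNA and the start codon together. Phosphorylation of eIF2 by a family of stress-sensing kinases slows this step across most mRNAs and lets the mRNA of ATF4 be translated. Synthetases load each tRNA with its amino acid, and cells keep separate enzymes for cytosolic and mitochondrial protein synthesis for most amino acids. In macrophages this machinery helps to set how quickly an mRNA of an inflammatory mediator becomes protein. The kinase encoded by Eif2ak2 and the synthetase encoded by Wars are also known as interferon-induced genes.

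Several synthetase genes are known targets of ATF4, which binds DNA with C/EBP proteins at composite C/EBP-ATF elements, and C/EBPβ is the factor overexpressed here. RefSeq promoter windows (GRCm38.p6, 250 bases before to 50 after a gene's start) were matched by symbol for 70 of the 91 members. They were searched on both strands for TGATGNAA (reverse complement TTNCATCA), the core of that element. It was found in 5 of 13 cytosolic synthetases (38.5%), in 1 of 43 initiation factors (Eif2s3x, 2.33%) and in 0 of 14 mitochondrial synthetases. The share was 2.71% of 8456 genes of the table with a window and 4.51% of all 27025 genes. A single stretch per synthetase gene is shown because these genes carry this difference between the classes. Aars has another match, not shown, with its first base at -112. The matches of Iars and Yars lie only after the start. Capitals mark the 8 matched bases, each stretch has 30 bases on the gene's strand, and a negative position lies before the start.
Aars, chr8:111033840-111033869, plus strand, first matched base at 10: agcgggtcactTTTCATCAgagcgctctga
Gars, chr6:55037960-55037989, plus strand, first matched base at -30: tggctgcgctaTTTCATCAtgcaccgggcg
Iars, chr13:49682126-49682155, plus strand, first matched base at 8: cactgtcagtaTTGCATCAcctccagacgc
Tars, chr15:11399655-11399684, minus strand, first matched base at -15: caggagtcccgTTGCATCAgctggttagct
Yars, chr4:129189895-129189924, plus strand, first matched base at 4: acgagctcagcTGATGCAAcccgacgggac
A match describes letters in a window, not binding.

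The interferon-stimulated response element was searched in the same windows as GAAA, any 2 bases and GAAA (reverse complement TTTC, any 2 bases and TTTC). It was present in 4 of 43 initiation factors (9.30%), 1 of 13 cytosolic synthetases (7.69%) and 0 of 14 mitochondrial synthetases, against 3.83% of the genes of the table. The Eif2ak2 stretch is shown because that gene's values are the most spread among the kinases, with the 10 matched bases in capitals.
Eif2ak2, chr17:78882535-78882564, minus strand, first matched base at 19: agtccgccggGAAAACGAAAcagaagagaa
The other matches were in Eif2s1, Eif2s3x, Eif3a and Qars, and no match of one motif overlapped a match of the other.

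Values are the authors' FPKM (fragments scaled by gene length and library total), which are per length and so allow levels of different genes to be compared, and sequencing depth is unknown. The median gene of the table lay at 6.12 to 6.63 FPKM per library. CEBPβ-A replicate 3 stood apart on the first principal component of all tested genes (score 25.7, against -11.7 to -0.095 in the other 5 libraries, 44.3% of the variance). It was the lowest or the highest of the 6 libraries for 56 of 89 tested members (62.9%) and for 61.2% of all tested genes. Over all tested genes the log2 fold change decreased with transcript length (Spearman rho -0.43 over 9570 genes, and -0.26 without that library), and genes that share libraries are not independent points. Tnfaip3 itself did not check the labels, with 7.94, 15.5 and 7.32 FPKM in the libraries labelled CEBPβ-A and 8.76, 17.7 and 19.2 FPKM in those labelled CEBPβ. Its mean was thus lower in the libraries labelled CEBPβ-A (limma adjusted p = 0.606), and every direction below is between libraries as labelled. Cebpb, the gene overexpressed in all 6 libraries, had 411 ± 70.5 FPKM in CEBPβ-A and 429 ± 66.6 FPKM in CEBPβ. All 14 alveolar macrophage markers had values, and 0 passed a limma adjusted p of 0.05. Their log2 fold changes were above 0 for 10 and below 0 for 4. The groups did not overlap for 5 with higher values in CEBPβ-A (35.7%) and 2 with lower values (14.3%). Over all tested genes these shares were 7.89% and 8.86%. Fabp1 had the smallest p of the 14, with 10.1 ± 1.62 FPKM in CEBPβ-A and 5.60 ± 1.30 FPKM in CEBPβ (limma adjusted p = 0.588). Summed epithelial markers (3 of 9 with a row) stood at 33.3 to 67.1 FPKM in CEBPβ-A and 29.1 to 39.3 FPKM in CEBPβ, and the highest sum was that of CEBPβ-A replicate 3. Summed neutrophil markers (3 of 5) stood at 298 to 317 FPKM in CEBPβ-A and 214 to 263 FPKM in CEBPβ, and nearly all of that sum was S100a8, with 286 to 303 FPKM in CEBPβ-A and 199 to 251 FPKM in CEBPβ. The groups overlapped for the other neutrophil markers, Cxcr2 at 3.41 ± 0.434 FPKM in CEBPβ-A and 3.29 ± 0.269 FPKM in CEBPβ, and Csf3r at 9.88 ± 1.14 FPKM in CEBPβ-A and 10.5 ± 0.956 FPKM in CEBPβ. The single fibroblast marker of 5 that had values was at most 1.00 FPKM. Of 6 T cell, 4 B cell and 4 endothelial markers looked up, 0 had a value. The part of other cells in the results was not tested, and fewer cells of a type cannot be told apart from less RNA per cell.

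The initiation factors were the most abundant class. Their median member had 17.1 FPKM over the 6 libraries, against 11.6 FPKM for cytosolic and 2.14 FPKM for mitochondrial synthetases. Of the 1000 highest genes of the table, 14 were initiation factors, 1 was a cytosolic synthetase (Nars) and 0 were mitochondrial synthetases. Eif5a, the factor that keeps ribosomes moving over difficult peptide bonds, led with 166 ± 15.5 FPKM in CEBPβ-A and 145 ± 15.8 FPKM in CEBPβ (SD, n = 3 each). The RNA helicase gene Eif4a1 followed with 142 ± 8.40 FPKM in CEBPβ-A and 130 ± 8.66 FPKM in CEBPβ. Eif4b, the helicase's cofactor, had 114 ± 1.93 FPKM in CEBPβ-A and 115 ± 2.63 FPKM in CEBPβ, and its spread within groups was 2.01% of its mean. Eif3h, an eIF3 subunit, had 114 ± 6.07 FPKM in CEBPβ-A and 105 ± 5.07 FPKM in CEBPβ. At the other end stood Eif4ebp3 and Eif5a2, at means of 0.577 and 1.13 FPKM, so that the class spanned 270-fold.

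**Figure D1:**
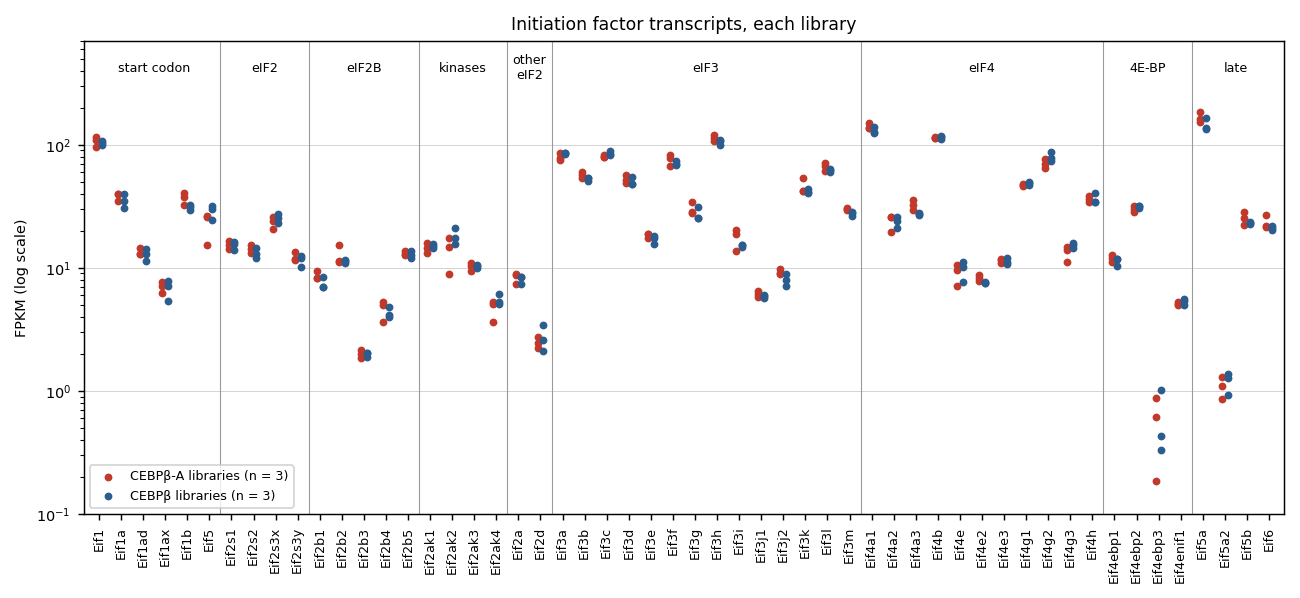
FPKM (log axis) of the 54 initiation factor genes in each library, with the 3 CEBPβ-A libraries (red) left of the 3 CEBPβ libraries (blue) for each gene, grouped by role. Eif5a, Eif4a1, Eif4b, Eif3h and Eif1 lie above or near 100 FPKM, and Eif4ebp3 is lowest, at 0.186 to 1.02 FPKM.

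No member passed the test between the groups. Of the 91 members 89 had a mean of at least 1 FPKM and were tested, and Eif4ebp3 and Mars2 were not. With limma on log2(FPKM + 1) and p adjusted over 9617 genes, 0 of 89 passed an adjusted p of 0.05, where 5 genes of the whole table did (0.052%, with 0.0208% higher and 0.0312% lower in CEBPβ-A), and the smallest adjusted p of a member was 0.588. At an unadjusted p under 0.05 there were 3 members, all with the higher mean in CEBPβ-A, against 3.76% of all tested genes higher, 4.42% lower and 8.18% in either direction. The groups did not overlap for 8 members with higher values in CEBPβ-A (8.99% of 89) and for 2 with lower values (2.25%). The shares over all tested genes were 7.89% and 8.86%. The fold changes were also small in a bounded sense: the 95% interval of the log2 fold change lay within 1.5-fold either way for 87 of 89 members (97.8%) and for 85.8% of all tested genes. For Eif2ak2 and Eif5 it reached further, and for all 89 it lay within 2-fold. The log2(FPKM + 1) scale understates changes of low genes, and with a pseudocount of 0.1 the intervals of 81 members lay within 1.5-fold and those of all 89 within 2-fold. These intervals are not adjusted for the number of genes.

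**Figure D2:**
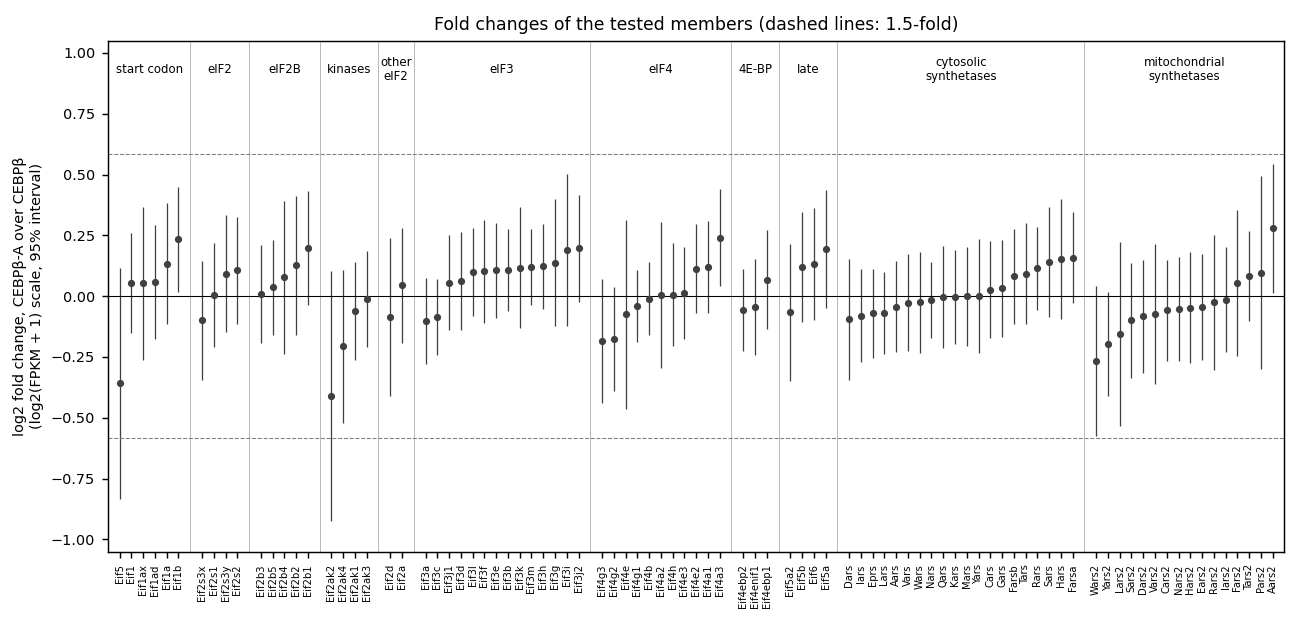
Log2 fold change, CEBPβ-A over CEBPβ, of the 89 tested members on the log2(FPKM + 1) scale with its 95% interval from limma (3 libraries per group), ordered within each group of genes. Intervals of Eif5 and Eif2ak2 cross the dashed lower line, which marks 1.5-fold, and those of the other 87 members lie between the dashed lines.

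The 3 members with an unadjusted p under 0.05 came from different parts of the machinery. Eif4a3 (ENSMUSG00000025580.15, GRCm38 chromosome 11, 119288363 to 119300089) is named as an initiation factor but is best known as the helicase of the exon junction complex. It had 32.2, 29.5 and 35.8 FPKM in CEBPβ-A and 27.7, 26.8 and 27.4 FPKM in CEBPβ. Every CEBPβ-A library thus stood above every CEBPβ library (log2 fold change 0.24, SE 0.085, limma adjusted p = 0.588). Eif1b (ENSMUSG00000006941.5, chromosome 9, 120492232 to 120495330), a close relative of the start-codon selection factor Eif1, had 32.7, 37.7 and 40.2 FPKM in CEBPβ-A and 32.5, 31.1 and 29.8 FPKM in CEBPβ. Its groups did not overlap, though by a narrow margin between replicates 1 (log2 fold change 0.23, SE 0.092, limma adjusted p = 0.588). Aars2 (ENSMUSG00000023938.7, chromosome 17, 45506841 to 45520842), the mitochondrial alanine enzyme, had 2.69, 2.34 and 3.10 FPKM in CEBPβ-A and 1.86, 1.93 and 2.37 FPKM in CEBPβ. Its groups overlapped by 1 library (log2 fold change 0.28, SE 0.11, limma adjusted p = 0.588). CEBPβ-A replicate 3 was the highest library for all 3 genes. Without it the log2 fold changes were 0.17 (Eif4a3), 0.17 (Eif1b) and 0.20 (Aars2). How many members had an unadjusted p under 0.05 turned on single libraries. Leaving out CEBPβ-A replicates 1, 2 and 3 in turn gave 6, 2 and 1 such members. With CEBPβ replicates 1, 2 and 3 left out in turn there were 0, 1 and 4. The count over all 9617 tested genes moved too, from 787 with all libraries to 514 without CEBPβ-A replicate 3. For the other libraries left out, the count over all tested genes is not given here.

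Start-codon selection rests on eIF1 and eIF1A in the scanning ribosome and on eIF5, which triggers GTP hydrolysis by eIF2. Eif1 had 108 ± 10.4 FPKM in CEBPβ-A and 104 ± 3.97 FPKM in CEBPβ (SD, n = 3 each), and stood 2.90 to 2.95 times above Eif1b in CEBPβ-A libraries and 3.07 to 3.47 times in CEBPβ libraries. Eif1a, whose product recruits the initiator complex, had 38.2 ± 2.61 FPKM in CEBPβ-A and 34.9 ± 4.57 FPKM in CEBPβ, well above its X-linked relative Eif1ax at 7.02 ± 0.732 FPKM in CEBPβ-A and 6.77 ± 1.21 FPKM in CEBPβ. Eif1ad had 13.5 ± 0.903 FPKM in CEBPβ-A and 12.96 ± 1.45 FPKM in CEBPβ. Eif5 (ENSMUSG00000021282.17, chromosome 12, 111538016 to 111546752) had 26.5, 26.1 and 15.4 FPKM in CEBPβ-A and 32.0, 29.8 and 24.4 FPKM in CEBPβ. A single library, CEBPβ-A replicate 3, lay far below the rest. The Eif5 log2 fold change was -0.36 (SE 0.20, 95% interval -0.83 to 0.12, limma adjusted p = 0.596), and -0.11 without that library.

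The eIF2 complex carries the initiator tRNA, and its 3 subunits were measured at different levels. Eif2s1, the α subunit that stress kinases phosphorylate, had 15.3 ± 1.20 FPKM in CEBPβ-A and 15.2 ± 1.15 FPKM in CEBPβ. The β subunit gene Eif2s2 had 14.2 ± 0.996 FPKM in CEBPβ-A and 13.2 ± 1.20 FPKM in CEBPβ. The γ subunit is encoded on both sex chromosomes in mice. Eif2s3x had 26.1, 24.1 and 20.7 FPKM in CEBPβ-A and 25.4, 27.5 and 23.2 FPKM in CEBPβ, and Eif2s3y had 13.5, 11.7 and 11.7 FPKM in CEBPβ-A and 11.9, 12.4 and 10.1 FPKM in CEBPβ. The X copy was thus above the Y copy in every library, by 1.77 to 2.07 times in CEBPβ-A and 2.13 to 2.31 times in CEBPβ. These ratios did not overlap between the groups, as for Eif1 over Eif1b and Aars over Aars2, which made 3 of 29 ratios formed. The ratios were not tested by a model, and an exact permutation test of 3 libraries against 3 cannot give a p below 0.1. Close copies can also share reads.

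The exchange factor eIF2B reloads eIF2 with GTP and is the step that phosphorylated eIF2 blocks. Its 5 subunit transcripts spanned 6.49-fold. Eif2b5, the catalytic ε subunit, had 13.1 ± 0.615 FPKM in CEBPβ-A and 12.8 ± 0.963 FPKM in CEBPβ, while Eif2b3, the γ subunit, had 2.01 ± 0.151 FPKM in CEBPβ-A and 1.99 ± 0.0846 FPKM in CEBPβ. Eif2b1 (α) had 9.45, 8.30 and 8.28 FPKM in CEBPβ-A and 7.04, 6.93 and 8.35 FPKM in CEBPβ (log2 fold change 0.20, SE 0.10, limma adjusted p = 0.589). Eif2b2 (β) had 11.3, 11.1 and 15.2 FPKM in CEBPβ-A and 11.3, 10.99 and 11.6 FPKM in CEBPβ, so CEBPβ-A replicate 3 alone stood out. Eif2b4 (δ) had 4.65 ± 0.888 FPKM in CEBPβ-A and 4.32 ± 0.443 FPKM in CEBPβ. All 5 fitted log2 fold changes were above 0, with a median of 0.078, and without CEBPβ-A replicate 3 the median was 0.00037 with 3 of 5 above 0.

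All 4 eIF2 kinase genes had values, and none passed the test. Eif2ak2 (ENSMUSG00000024079.4, chromosome 17, 78852564 to 78882573) encodes PKR, the sensor of double-stranded RNA. It had 17.4, 14.8 and 8.96 FPKM in CEBPβ-A and 17.6, 20.995 and 15.7 FPKM in CEBPβ. CEBPβ-A replicate 1 lay within the CEBPβ range and replicate 3 below every other library (log2 fold change -0.41, SE 0.22, 95% interval -0.92 to 0.10, limma adjusted p = 0.589, and -0.15 without replicate 3). The heme-regulated kinase gene Eif2ak1 had 14.5 ± 1.31 FPKM in CEBPβ-A and 15.1 ± 0.532 FPKM in CEBPβ. Eif2ak3, which encodes PERK of the endoplasmic reticulum, had 10.2 ± 0.814 FPKM in CEBPβ-A and 10.3 ± 0.256 FPKM in CEBPβ (95% interval of the log2 fold change -0.21 to 0.19). Eif2ak4, which encodes the amino acid sensor GCN2, had 5.05, 5.27 and 3.65 FPKM in CEBPβ-A and 6.12, 5.24 and 5.10 FPKM in CEBPβ (log2 fold change -0.21, SE 0.13, limma adjusted p = 0.609, and -0.071 without CEBPβ-A replicate 3). The median of the 4 fold changes was -0.13, with 0 of 4 above 0, and -0.036 with 1 of 4 above 0 when CEBPβ-A replicate 3 was left out.

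Interferon-induced genes were set beside the PKR gene. The list holds 24 textbook targets outside the members. It was chosen with earlier results of these data known, so its counts are description and no independent support. Of the 24 genes 0 passed the test, and 0 had a log2 fold change above 0 (46.6% of all tested genes did). Their median was -0.47 (-0.30 without CEBPβ-A replicate 3). At an unadjusted p under 0.05, 18 of the 24 were lower in CEBPβ-A (4.42% of all tested genes), against 10 of 24 in either direction without that library. The groups did not overlap for 12 of the 24, all lower in CEBPβ-A (8.86% of all tested genes). The summed level of the 24 genes was 517, 423 and 330 FPKM in CEBPβ-A replicates 1, 2 and 3 and 520, 613 and 584 FPKM in CEBPβ replicates 1, 2 and 3. Eif2ak2 was likewise highest in CEBPβ replicate 2 and lowest in CEBPβ-A replicate 3. The GTPase genes Gbp7 and Gbp2 had the smallest p of the list, with log2 fold changes of -0.83 and -0.47 (limma adjusted p = 0.588 for both). Wars did not follow them, with 8.45, 9.25 and 8.41 FPKM in CEBPβ-A and 9.09, 8.10 and 9.45 FPKM in CEBPβ (log2 fold change -0.025, 95% interval -0.23 to 0.18).

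The eIF3 complex holds the small ribosomal subunit ready for mRNA, and its 14 listed genes were among the best measured members, with a median spread within groups of 5.95% of the mean against 10.6% over all tested genes. Their levels spanned 18.3-fold, with Eif3j1 lowest. Eif3j1 and Eif3j2, at means of 5.98 and 8.65 FPKM, are close copies that can share reads. The other listed subunits of the complex lay between 110 FPKM (Eif3h) and 16.4 FPKM (Eif3i). Eif3h, Eif3c, Eif3a and Eif3f had means of 110, 82.7, 82.5 and 73.1 FPKM over the 6 libraries, whereas Eif3e, Eif3i and Eif3j1 had 17.8, 16.4 and 5.98 FPKM. Eif3h stood 5.69 to 6.88 times above Eif3e in the CEBPβ-A libraries and 5.92 to 6.31 times in the CEBPβ libraries. Of the 14 genes 12 had a log2 fold change above 0, with a median of 0.11, and 36 of 53 initiation factors did, against 46.6% of all tested genes. In CEBPβ-A replicates 1, 2 and 3 the median deviation of the 14 genes from the CEBPβ mean was 0.041, 0.077 and 0.18 on the log2 scale, and in CEBPβ replicates 1, 2 and 3 it was 0.0028, -0.023 and 0.034. The tendency was thus smallest in CEBPβ-A replicate 1 and largest in replicate 3, and the median was 0.057 without replicate 3. The median annotated transcript length of the eIF3 genes was 1404 bases, against 2088 bases over all tested genes. With the length trend removed the median log2 fold change was 0.067. No single eIF3 gene passed.

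Among 14 eIF3 genes the groups did not overlap for 3 with higher values in CEBPβ-A (21.4%) and 1 with lower values (7.14%), against 7.89% and 8.86% of all tested genes. Eif3m had 30.3, 29.8 and 30.5 FPKM in CEBPβ-A and 28.0, 28.6 and 26.6 FPKM in CEBPβ (log2 fold change 0.12, SE 0.067, limma adjusted p = 0.593). Eif3b, a scaffold subunit, had 54.0, 56.5 and 60.3 FPKM in CEBPβ-A and 53.7, 50.6 and 54.0 FPKM in CEBPβ, where the nearest libraries were almost equal. Eif3j2 had 8.97, 9.78 and 9.13 FPKM in CEBPβ-A and 7.99, 8.83 and 7.18 FPKM in CEBPβ (log2 fold change 0.20, SE 0.095, limma adjusted p = 0.588), and as a close copy of Eif3j1 it can share reads with it. In the other direction Eif3c, part of the core that binds the ribosome, had 82.1, 78.8 and 79.8 FPKM in CEBPβ-A and 84.3, 82.2 and 89.1 FPKM in CEBPβ, with a gap far smaller than the spread of the CEBPβ libraries. These names were chosen after the values were seen, apart from Eif3j2.

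The cap-binding group eIF4F joins a cap-binding protein, a scaffold and a helicase. The cap-binding gene Eif4e had 10.6, 9.66 and 7.16 FPKM in CEBPβ-A and 10.1, 11.2 and 7.72 FPKM in CEBPβ, so that replicate 3 was lowest in both groups. By FPKM it was not the highest of its family: Eif4e3 had 11.4 ± 0.456 FPKM in CEBPβ-A and 11.3 ± 0.702 FPKM in CEBPβ. Eif4e3 was above Eif4e in each of the 6 libraries, by 1.03 to 1.62 times. Exons of Eif4e3 overlap those of Gm20696 on the same strand, so reads of these genes may not be told apart. Eif4e2, whose product binds caps without recruiting the scaffold eIF4G, had 7.88, 8.72 and 8.33 FPKM in CEBPβ-A and 7.57, 7.58 and 7.68 FPKM in CEBPβ, and its groups did not overlap (log2 fold change 0.11, SE 0.079, limma adjusted p = 0.624). Eif4a1 was 5.24 to 7.71 times above its close relative Eif4a2 in CEBPβ-A and 4.87 to 6.64 times in CEBPβ. Eif4a2 had 23.9 ± 3.69 FPKM in CEBPβ-A and 23.7 ± 2.41 FPKM in CEBPβ.

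The Eif4g genes are grouped here by name, which does not show that each product is a scaffold of eIF4F. Of these genes, Eif4g2 was the most abundant. It had 69.98, 76.9 and 65.0 FPKM in CEBPβ-A and 78.5, 86.8 and 74.4 FPKM in CEBPβ (log2 fold change -0.18, SE 0.092, limma adjusted p = 0.589). Only CEBPβ-A replicate 2 reached into the CEBPβ range. Eif4g1 had 47.0 ± 0.526 FPKM in CEBPβ-A and 48.5 ± 1.22 FPKM in CEBPβ, with a spread within groups of 1.96% of its mean. Eif4g3 had 14.8, 14.1 and 11.2 FPKM in CEBPβ-A and 14.6, 15.8 and 15.4 FPKM in CEBPβ (log2 fold change -0.19, SE 0.11, limma adjusted p = 0.598, and -0.073 without CEBPβ-A replicate 3). The helicase cofactor gene Eif4h had 36.4 ± 2.07 FPKM in CEBPβ-A and 36.3 ± 3.58 FPKM in CEBPβ.

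The eIF4E-binding proteins hold eIF4E away from its scaffold until mTORC1 phosphorylates them. Eif4ebp2 had 30.3 ± 1.76 FPKM in CEBPβ-A and 31.5 ± 0.627 FPKM in CEBPβ, which was 2.26 to 3.03 times the level of Eif4ebp1 over the 6 libraries. Eif4ebp1 had 11.9 ± 0.771 FPKM in CEBPβ-A and 11.3 ± 0.777 FPKM in CEBPβ, with a 95% interval of the log2 fold change from -0.14 to 0.27. Eif4ebp3 had 0.186, 0.609 and 0.879 FPKM in CEBPβ-A and 0.431, 0.333 and 1.02 FPKM in CEBPβ, too low to be tested. Eif4enif1, whose product carries eIF4E into the nucleus, had 5.13 ± 0.154 FPKM in CEBPβ-A and 5.33 ± 0.327 FPKM in CEBPβ. Of 10 mTORC1 pathway genes 9 were tested and 0 passed. The kinase gene Mtor and the inhibitor gene Tsc1 had the smallest p there, with log2 fold changes of -0.24 and -0.23 (limma adjusted p = 0.589 and 0.599), and -0.105 and -0.082 without CEBPβ-A replicate 3.

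Late factors and the elongation and termination genes also held no gene past the threshold. Eif5b, which joins the ribosomal subunits, had 25.3 ± 3.08 FPKM in CEBPβ-A and 23.1 ± 0.353 FPKM in CEBPβ. Eif6, which keeps the large subunit apart until it is mature, had 23.3 ± 3.05 FPKM in CEBPβ-A and 21.1 ± 0.669 FPKM in CEBPβ. Eif5a stood 119 to 215 times above Eif5a2 in CEBPβ-A and 100.4 to 178 times in CEBPβ. Of 18 listed genes of elongation, termination and mRNA binding 0 passed, 10 had a log2 fold change above 0 and the median was 0.029. Those with the smallest p were Eef1b2, an exchange factor of elongation, and the methyltransferase gene Eef1akmt1, with log2 fold changes of 0.17 and 0.13 (limma adjusted p = 0.594 and 0.602). Without CEBPβ-A replicate 3 they were 0.070 and 0.12, and the median of the list was 0.054.

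Cytosolic synthetases varied 11.9-fold among themselves and little between libraries. Their median spread within groups was 6.34% of the mean, against 11.7% for the lower mitochondrial class. Nars, the asparagine enzyme, was highest with 57.7, 55.1 and 59.9 FPKM in CEBPβ-A and 56.9, 58.0 and 59.7 FPKM in CEBPβ. The groups overlapped almost wholly. Gars, which serves the cytosol and the mitochondrion from one gene, had 38.0 ± 2.63 FPKM in CEBPβ-A and 37.1 ± 2.86 FPKM in CEBPβ. Next came Rars (arginine) with 28.3 ± 1.10 FPKM in CEBPβ-A and 26.1 ± 1.32 FPKM in CEBPβ. Hars (histidine) had 27.2 ± 2.27 FPKM in CEBPβ-A and 24.5 ± 2.86 FPKM in CEBPβ. Hars and Hars2 overlap on opposite strands, and whether the counting used strand is not stated, so reads of the pair may not be told apart. Kars, which also serves both compartments, had 14.1 ± 1.04 FPKM in CEBPβ-A and 14.1 ± 0.628 FPKM in CEBPβ. Lowest was Yars (tyrosine), with 4.85 ± 0.215 FPKM in CEBPβ-A and 4.86 ± 0.567 FPKM in CEBPβ.

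**Figure D3:**
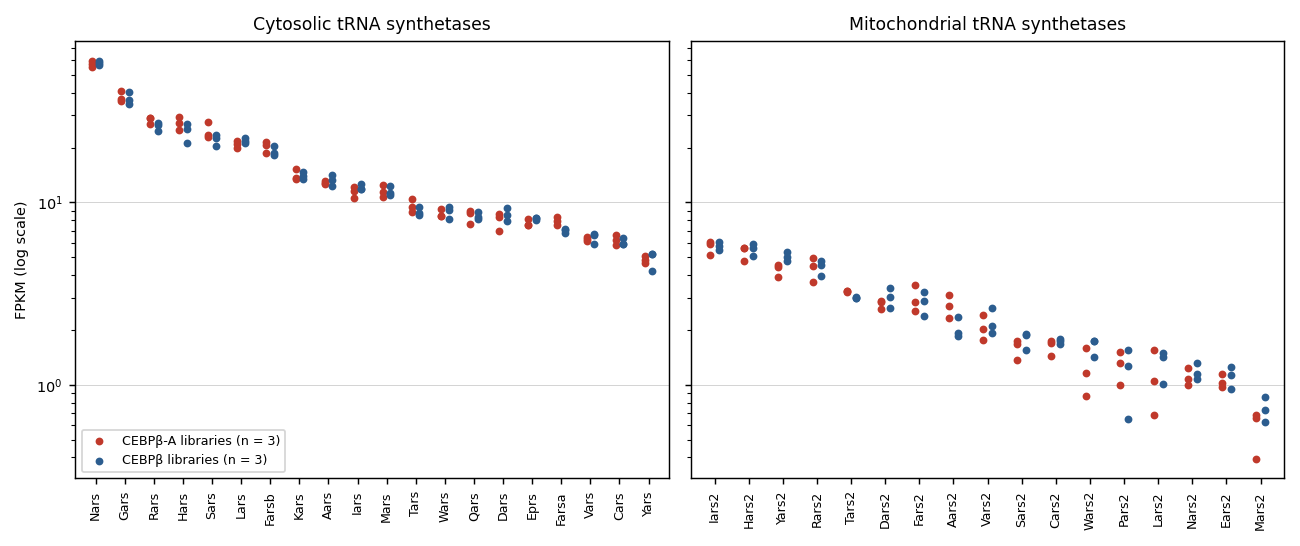
FPKM (log axis, shared by both panels) of the 20 cytosolic and 17 mitochondrial synthetase genes in each library, with CEBPβ-A (red) left of CEBPβ (blue) for each gene, ordered by mean. Of the cytosolic genes 19 have a mean above Iars2, the highest mitochondrial gene at 5.72 FPKM.

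The 20 fold changes of cytosolic synthetases centred on 0, with a median of -0.0018 and 9 above 0. Eprs, which loads both glutamate and proline, and Iars (isoleucine) belong to the multisynthetase complex. Eprs had 8.13, 7.51 and 7.51 FPKM in CEBPβ-A and 8.23, 8.06 and 8.17 FPKM in CEBPβ, and Iars had 11.4 ± 0.781 FPKM in CEBPβ-A and 12.1 ± 0.416 FPKM in CEBPβ. Dars (aspartate) had the lowest fold change of the class (log2 -0.095, SE 0.11, limma adjusted p = 0.742, and -0.0088 without CEBPβ-A replicate 3) and Farsa the highest. The phenylalanine enzyme is built from the products of Farsa and Farsb. Farsa had 7.53, 7.90 and 8.34 FPKM in CEBPβ-A and 7.07, 7.13 and 6.77 FPKM in CEBPβ, with no overlap (log2 fold change 0.16, SE 0.081, limma adjusted p = 0.589). Farsb had 20.2 ± 1.40 FPKM in CEBPβ-A and 19.1 ± 1.17 FPKM in CEBPβ, 2.24 to 2.86 times the level of its partner over the 6 libraries. The scaffold genes of the complex, Aimp1, Aimp2 and Eef1e1, were all tested and 0 passed. Aimp1 and Aimp2 had the smallest p of the 3, with log2 fold changes of 0.14 and -0.0065 (0.071 and -0.020 without CEBPβ-A replicate 3).

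The 5 synthetases with a C/EBP-ATF core shown above did not pass either, and had log2 fold changes of -0.043 (Aars), 0.032 (Gars), -0.080 (Iars), 0.092 (Tars) and 0.0025 (Yars). Without CEBPβ-A replicate 3, Aars was at -0.059, Gars at -0.023, Iars at -0.031, Tars at 0.035 and Yars at -0.026. Both groups carried C/EBPβ overexpression, so the comparison cannot show whether these genes respond to it. Of 17 other effector genes of the integrated stress response, the pathway from eIF2 kinases to ATF4, 0 passed, 7 had a log2 fold change above 0 and the median was -0.059. Slc7a11, the cystine transporter gene, and Shmt2, a mitochondrial serine enzyme gene, had the smallest p of this list, with log2 fold changes of -0.46 and 0.26 (limma adjusted p = 0.588 for both). Atf4 itself had 90.4, 89.7 and 107 FPKM in CEBPβ-A and 91.9, 82.2 and 90.1 FPKM in CEBPβ, and transcript levels do not show its translation. Asns, which makes asparagine, had 5.06, 3.41 and 3.21 FPKM in CEBPβ-A and 4.69, 4.79 and 6.59 FPKM in CEBPβ. Its groups overlapped by 1 library (log2 fold change -0.38, limma adjusted p = 0.588); Atf4 and Asns were named after their values were seen.

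Mitochondrial synthetases were low throughout, and 15 of 17 had means under 5 FPKM. For 14 amino acids both a cytosolic and a mitochondrial gene were listed, and the cytosolic one was higher in all 6 libraries for 13 of them, with a median ratio of 5.12. The widest gap was for asparagine, where Nars stood 44.6 to 59.9 times above Nars2 in CEBPβ-A and 45.2 to 52.8 times in CEBPβ. For isoleucine the gap was narrow, with Iars 1.95 to 2.06 times above Iars2 in CEBPβ-A and 2.05 to 2.18 times in CEBPβ. The exception was tyrosine. Yars over Yars2 was 1.03, 1.09 and 1.31 in CEBPβ-A and 0.972, 0.840 and 1.09 in CEBPβ, so the 2 genes were about equal and their order changed between libraries. For alanine Aars stood 4.25 to 5.45 times above Aars2 in CEBPβ-A and 6.01 to 7.12 times in CEBPβ.

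Yars2, the mitochondrial tyrosine enzyme, had 4.52, 4.42 and 3.89 FPKM in CEBPβ-A and 5.34, 5.01 and 4.77 FPKM in CEBPβ. The groups did not overlap (log2 fold change -0.20, SE 0.092, 95% interval -0.41 to 0.019, limma adjusted p = 0.588). Wars2 (tryptophan) had 1.59, 1.16 and 0.873 FPKM in CEBPβ-A and 1.43, 1.74 and 1.75 FPKM in CEBPβ, with CEBPβ-A replicate 1 inside the CEBPβ range (log2 fold change -0.27, SE 0.13, limma adjusted p = 0.589, and -0.15 without CEBPβ-A replicate 3). Tars2 (threonine) had 3.25, 3.23 and 3.27 FPKM in CEBPβ-A and 3.001, 2.999 and 3.05 FPKM in CEBPβ, the smallest spread within groups of any member (0.787% of the mean), with limma adjusted p = 0.705 and a log2 fold change of 0.082. Its groups did not overlap. Lars2 (leucine) had 1.55, 1.04 and 0.688 FPKM in CEBPβ-A and 1.499, 1.42 and 1.01 FPKM in CEBPβ, with replicate 3 lowest in both groups. Iars2, Hars2 and Rars2, the highest of the class beside Yars2, had log2 fold changes of -0.015, -0.048 and -0.026 (SE 0.093, 0.099 and 0.12). Fars2 and Pars2 had 0.053 and 0.097, and Sars2 had -0.099. Mars2 had 0.685, 0.659 and 0.395 FPKM in CEBPβ-A and 0.730, 0.860 and 0.624 FPKM in CEBPβ, and was not tested.

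Of 16 mitochondrial synthetases tested, 4 had a log2 fold change above 0, with a median of -0.050, and without CEBPβ-A replicate 3 the count was 6 and the median -0.014. With that library left out, 35 of 53 initiation factors and 6 of 20 cytosolic synthetases were above 0, against 50.4% of all tested genes, and the medians were 0.031 and -0.024. The median over all tested genes was -0.013 with all 6 libraries and 0.0011 without it. No test of the difference between the classes was made, since their members share the same libraries. Of 12 other genes of mitochondrial translation 0 passed and 7 were above 0. Tufm, the mitochondrial elongation factor gene, had 15.1, 14.7 and 19.5 FPKM in CEBPβ-A and 13.1, 12.99 and 13.1 FPKM in CEBPβ, and no overlap (log2 fold change 0.30, limma adjusted p = 0.588, and 0.18 without CEBPβ-A replicate 3). The initiation factor gene Mtif2 had a log2 fold change of -0.15 (limma adjusted p = 0.605).

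**Figure D4:**
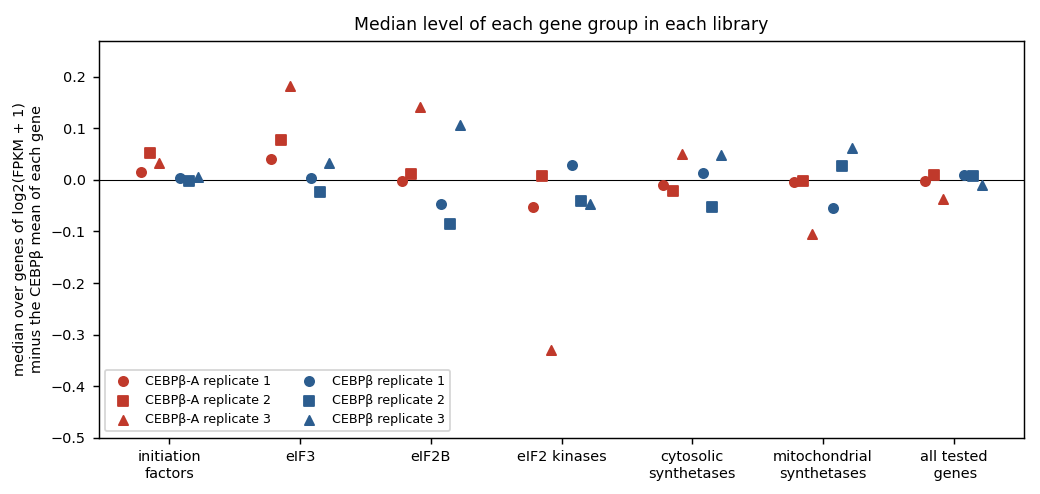
Median over genes of log2(FPKM + 1) minus each gene's CEBPβ mean, for 6 groups of tested members and for all tested genes, with one point per library (CEBPβ-A red, left; CEBPβ blue, right). CEBPβ-A replicate 3 lies at 0.18 for eIF3, 0.14 for eIF2B, -0.33 for eIF2 kinases and -0.11 for mitochondrial synthetases, against -0.038 for all tested genes.

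The plot of library medians shows how far single libraries moved the groups of genes. CEBPβ-A replicate 3 was the highest library for 32 tested members and the lowest for 24. In the order of the fold changes of members, longer transcripts stood lower (Spearman rho -0.37 over 89 members, -0.25 without that library; members share libraries). The median annotated transcript length was 4319 bases for the kinases and 957 bases for eIF2B subunits. These lengths are medians over a gene's annotated transcripts and need not be those of the transcripts expressed here. With the length trend removed, the medians were 0.054 for initiation factors, 0.041 for cytosolic and -0.015 for mitochondrial synthetases, against 0.0042 for all tested genes.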

How the data were processed

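Per the file headers, the authors deposited FPKM, a unit that divides fragments by transcript length and library size, for the 6 libraries, each with a versioned Ensembl identifier and locus. Per the submitters' processing notes the genome was GRCm38. Stranded libraries came from a KAPA kit and total RNA, per the labels' protocols. The sources used here do not name the aligner, quantifier, annotation release or listing rule. Division by gene length and library total leaves differences in fragment length and RNA integrity in the values. Depth is unknown: low values of genes with 1 transcript showed no clear whole-read steps (periodicity 0.124 to 0.173 per library, where 1 would be exact), so no counting interval is given.

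Genes with a mean of at least 1 FPKM were fitted on log2(FPKM + 1) by limma (version 3.58.1, R 4.3.3) with an intensity trend, CEBPβ-A minus CEBPβ, without covariates, two-sided, Benjamini-Hochberg adjusted over 9617 genes, threshold 0.05. The code was tested on simulated data. Transcript lengths are medians over protein-coding transcripts of GENCODE M21 (GRCm38). Some are short, such as 819 bases for Vars and 655 for Qars, and need not be the length of the main transcript. All results on length rest on these medians. In that annotation, exons of 21 members overlap another protein-coding gene, 18 of them on the opposite strand, so their values are less certain. Promoter sequences are RefSeq's, and the search, planned for upstream bases, also took in the bases after the start. Some matched stretches are not reported here.

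Named members were those past the threshold, the 4 highest and the 4 of smallest p each way per class, and fixed sets (kinases, eIF2, eIF2B, cap-binding, scaffold and 4E-binding genes, Wars); other members are described by level and were named after their values were seen. Members and lists were chosen with earlier results of these data known. Alternatives were pseudocounts of 0.1 and 0.5, no filter, at least 5 FPKM, 3 other scalings, other variance models, a replicate block, each library left out, and a length trend removed. Replicate numbers were checked for pairing.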

Additional observations from a re-analysis of the deposited data

How the results depend on the processing

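All 17 alternatives gave 0 of the members past the threshold, and the lowest adjusted p of any member in any of them was 0.372. Over all tested genes 5 passed, against 0 at a mean of at least 5 FPKM, 2 with quantile normalization, 1 with the replicate block and 1 to 9 with single libraries left out. Same-numbered libraries of the groups deviated together in part (correlations of 0.0993, 0.247 and 0.259), and each of the 6 correlated best with its own number. Deviations were taken from the mean of each group of 3, so these 6 matches are not independent. The labels state no pairs, and the main fit did not use the numbers. Whether they mark pairs or a shared batch was not tested. The replicate block left 0 members past the threshold and 8 at an unadjusted p under 0.05, against 3 without it. That count was 0 to 6 with single libraries left out and 2 to 5 in the other alternatives. Over all tested genes it was 787 in the main fit and 514 without CEBPβ-A replicate 3, and is not given here for the other alternatives. The median of initiation factors was 0.055, against 0.071 with median-of-ratios scaling and 0.031 to 0.066 with single libraries left out, and the cause was not tested. The medians of eIF3 genes and eIF2 kinases, the unadjusted counts and the counts of groups without overlap were examined under alternatives chosen after seeing the data. Without CEBPβ-A replicate 3, groups did not overlap for 14 members upward and 2 downward, against 1078 and 1054 of all 9617 tested genes. Of 53 named and tested members, 23 near 0 changed the sign of their log2 fold change somewhere, none past the threshold, as follows. With median-of-ratios scaling the values were 0.00329 (Eif2ak3), 0.00685 (Eif4b) and 0.000831 (Nars). With quantile normalization the values were 0.012 (Eif2ak3), -0.00406 (Eif4a2), -0.00888 (Gars), 0.020 (Iars2), 0.020 (Rars2) and 0.00204 (Wars). With the length trend removed the values were 0.039 (Eif2ak1), 0.023 (Eif2ak3), -0.025 (Eif2b3), -0.026 (Eif2b5), -0.015 (Eif4a2), 0.024 (Eif4b), 0.014 (Eif4ebp2), 0.057 (Eif5a2), 0.049 (Eprs), 0.010 (Iars), 0.024 (Iars2) and 0.012 (Wars). With single libraries left out the ranges were -0.060 to 0.045 (Eif2ak3), -0.011 to 0.20 (Eif2b2), -0.029 to 0.043 (Eif2b3), -0.00927 to 0.21 (Eif2b4), -0.011 to 0.089 (Eif2b5), -0.051 to 0.058 (Eif2s1), -0.073 to 0.13 (Eif4a2), -0.028 to 0.00469 (Eif4b), -0.21 to 0.073 (Eif4e), -0.020 to 0.057 (Eif4e3), -0.16 to 0.014 (Eif5a2), -0.045 to 0.13 (Fars2), -0.023 to 0.091 (Gars), -0.098 to 0.018 (Hars2), -0.053 to 0.047 (Iars2), -0.044 to 0.015 (Nars), -0.083 to 0.23 (Pars2), -0.11 to 0.072 (Rars2) and -0.083 to 0.017 (Wars).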
